A study of Mus musculus with 9 samples.

Results

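Solute carriers are membrane proteins that move ions, amino acids, transmitters, sugars, metals and vitamins across cell and organelle membranes, and their gene symbols begin with Slc. The members described here are the genes with such a symbol that had at least 1 peak in the authors' list of Mbnl2 CLIP peaks, without the astrocyte glutamate transporter genes Slc1a2 and Slc1a3. They are 91 of the 4800 genes with a listed peak (1.90%) and hold 195 of the 10407 peaks (1.87%). One member, Slc4a1ap, encodes an adaptor protein named after a carrier and is not a transporter, and Slco1a4 and Slco3a1 belong to the organic anion transporter branch.

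Mbnl2 is a muscleblind-like protein that binds RNA, regulates alternative splicing in the brain and is also known to act on 3′ untranslated regions (3′UTRs). CLIP joins a protein to the RNA it touches with ultraviolet light and sequences the short RNA tags that stay attached after purification. Many tags stacked on a few bases form a peak, and a base that recurrently differs from the genome within tags marks a likely crosslink. In the hippocampus, carriers set the chloride and calcium levels of neurons, fill synaptic vesicles and clear or recycle transmitters, much of the last in astrocytes.

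The series holds 9 samples of female mouse hippocampus in 3 groups of 3. One RNA-seq group is homozygous for the MBNL2 ΔE2 deletion (knockout) and the other is wild type, both aged 2 to 3 months. The last group is wild-type CLIP, labelled 3 months and, in its protocol, 11 to 12 weeks. Labels give a mixed C57BL/6 and 129 SvlmJ background for all groups, while the series text calls the CLIP mice BL6. Beyond the name ΔE2, the labels do not say what the deletion removes or in which cells. They also do not say whether each CLIP library came from 1 animal. No knockout CLIP, control antibody or input library was analysed here, so a peak is a place of high tag density without a measured background.

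The CLIP libraries held 159144, 209430 and 334857 unique tags, numbered libraries 1 to 3 below. Levels are given as tags overlapping a gene's peaks per 1000000 unique tags of the library (CPM). They are not scaled to transcript abundance or length, so a higher value can come from more transcript, fewer or more cells of a type, more RNA per cell or more binding, which cannot be told apart. Among marker lists, neuron markers summed to 1756 to 2627 CPM with 5 of 5 listed, oligodendrocyte markers to 1717 to 2715 CPM with 3 of 5 listed, and astrocyte markers to 660 to 880 CPM with 4 of 5 listed (not Gfap). Single genes gave much of these sums. Snap25 had a mean of 1490 CPM of the neuron mean of 2190 CPM. Mbp had 1118 of 2165 CPM for oligodendrocytes, and Glul 371 of 773 CPM for astrocytes. Endothelial markers summed to 9.55 to 37.7 CPM with 3 of 5 listed, and no microglial marker of 5 was listed. The choroid plexus list (3 of 5 listed) summed to 157, 1055 and 299 CPM in libraries 1, 2 and 3, nearly all of it transthyretin (Ttr). Its part in the values below was not tested.

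Together the solute carrier peaks drew 488, 597 and 908 tags in libraries 1, 2 and 3, which is 3066, 2851 and 2712 CPM (mean 2876 ± 179, SD, n = 3). Peaks of all genes summed to 159422, 161300 and 144811 CPM (155177 ± 9027). The members therefore took 1.92, 1.77 and 1.87% of all tags in peaks (1.85 ± 0.0797%), against their 1.90% of the genes. A single solute carrier gene looked much like any other gene with a peak. The median member had 12.5 CPM and 9 tags, against 12.3 CPM and 9 tags in the 4709 other genes, and the mean number of peaks per gene was 2.14 in members and 2.16 in other genes. One peak was all that 50 of 91 members had (54.9%), against 52.7% of other genes.

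Tags were concentrated in few members. The 5 highest genes held 37.7% of the tags in solute carrier peaks, the 10 highest 53.4% and the 25 highest 75.9%. Such shares are given for members only. Levels of other genes were also uneven, with a median of 12.3 CPM and a highest of 1490 CPM. Slc24a2 had the most tags in each of the 3 libraries. The 28 genes described by name under the naming rule carried 113 peaks and 77.9% of the tags, each with tags in all 3 libraries. The other 63 members carried 82 peaks, had mean levels of 1.99 to 25.9 CPM (median 7.18) and reached a height of at most 13 tags. Of those 63, 34 had peak tags in all 3 libraries, 25 in 2 and 4 in 1.

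**Figure D1:**
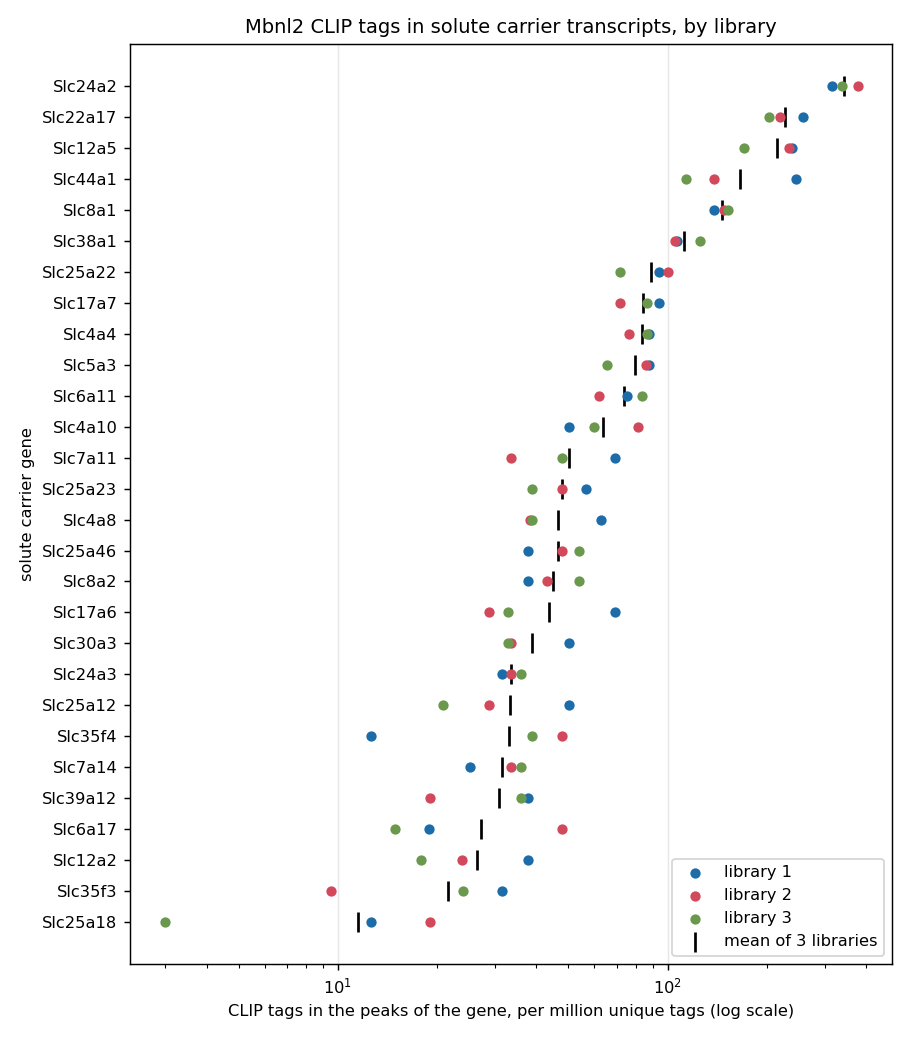
CLIP tags in the peaks of the 28 named solute carrier genes, in CPM on a log axis, with 1 point per library and a bar for the mean of the 3 libraries. Slc24a2 lies between 314 and 377 CPM, above every point of the other genes, while the points of neighbouring genes further down mostly overlap.

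By role, the largest sum belonged to the ion exchangers and cotransporters, which set sodium, potassium, calcium, chloride, bicarbonate and phosphate levels. Their 19 genes and 57 peaks (43 in 3′UTRs) drew 1093, 1146 and 1042 CPM (1094 ± 51.9). The 10 genes for organic ions, lipids and vitamins followed with 553, 444 and 376 CPM (458 ± 89.1), most of it from 2 genes described below. Neither the sum nor the gene count of a role was tested against another, since genes differ in abundance and length.

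The neuronal exchanger Slc24a2, which uses sodium and potassium gradients to extrude calcium, was the highest member. It had 314, 377 and 337 CPM in libraries 1, 2 and 3 (343 ± 31.9) and ranked 46 among all 4800 genes with peaks. All 8 of its peaks lay in the 3′UTR, spread over 7796 nt of chromosome 4 (86629110 to 86636905, mm9, minus strand). The highest, at 86629110, was 76 tags deep and drew 15, 25 and 36 tags in libraries 1, 2 and 3. The next, at 86632057 in a simple repeat, was 63 deep with 15, 18 and 30 tags, and the other 6 were 11 to 30 deep. Heights are the authors' own values, the pooled tag depth of the 3 libraries. All 8 peaks had tags of all 3 libraries, and no library stood apart. The related exchanger Slc24a3 had 31.4, 33.4 and 35.8 CPM (33.6 ± 2.21). By overlap, the ratio of Slc24a2 to Slc24a3 tags was 10, 11.3 and 9.42 in the 3 libraries. The gap was smaller when tags were counted by their centre, with 28.0 CPM in Slc24a2 and 12.5 CPM in Slc24a3.

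Slc12a5 encodes KCC2, the potassium-chloride cotransporter that keeps chloride low in mature neurons. It had 239, 234 and 170 CPM (214 ± 38.3), with library 3 lowest. Its 4 peaks fell in 1073 nt of 3′UTR on chromosome 2 (164824076 to 164825148, plus strand). The 2 highest were 60 and 47 tags deep at 164825147 and 164824901, with 17, 22 and 22 tags and 14, 15 and 18 tags across the libraries. Slc12a2 encodes NKCC1, which loads chloride in the opposite direction. It had 37.7, 23.9 and 17.9 CPM (26.5 ± 10.1) in 2 peaks of the 3′UTR, 10 and 7 tags deep. The ratio of Slc12a5 to Slc12a2 tags was 6.33, 9.80 and 9.50, so Slc12a5 was above Slc12a2 in every library when tags were counted by overlap. The order turned round when tags were counted by their centre, with 9.86 CPM in Slc12a5 and 23.9 CPM in Slc12a2. The Slc12a5 peaks are 1 to 4 nt wide. This and the other gene pairs given as ratios were chosen after the values were seen and carry no test.

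Among the sodium-calcium exchangers, Slc8a1 had 138, 148 and 152 CPM (146 ± 7.21), the smallest spread among the 5 highest genes. Of its 9 peaks, 6 were in the 3′UTR, the highest 32 deep at 81784720 to 81784729 on chromosome 17. A further 2 were in coding sequence (7 and 8 deep) and 1 in an intron (15 deep at 82045609, with 2, 3 and 10 tags). Slc8a2 had 37.7, 43.0 and 53.8 CPM in 2 peaks of the 3′UTR, and the ratio of Slc8a1 to Slc8a2 tags was 3.67, 3.44 and 2.83 by overlap. By tag centre Slc8a1 had 58.9 CPM and Slc8a2 0 CPM. Slc8a3 differed in layout, with 4 intron peaks of 2 to 3 tags and 18.9, 4.77 and 14.9 CPM.

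The bicarbonate carriers, which move acid equivalents with sodium, were led by the electrogenic cotransporter Slc4a4, prominent in astrocytes. It had 88.0, 76.4 and 86.6 CPM (83.7 ± 6.32) over 5 peaks. A group of 4 lay in the 3′UTR, the highest 20 deep. The fifth lay in an intron at 89561272 to 89561288 on chromosome 5 and was 18 deep, the deepest intron peak of all members, but 14 of its 18 tags came from library 3, with 3 and 1 in libraries 1 and 2. Slc4a10, the sodium-driven exchanger of neurons and choroid plexus, had 50.3, 81.2 and 59.7 CPM (63.7 ± 15.8) in 4 peaks of the 3′UTR. Its highest library was library 2, where Ttr was 1031 CPM against 157 and 281 CPM in libraries 1 and 3, and a link between them was not tested. Slc4a8 had 62.8, 38.2 and 38.8 CPM, and all 4 of its 3′UTR peaks lay in LTR repeats.

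**Figure D2:**
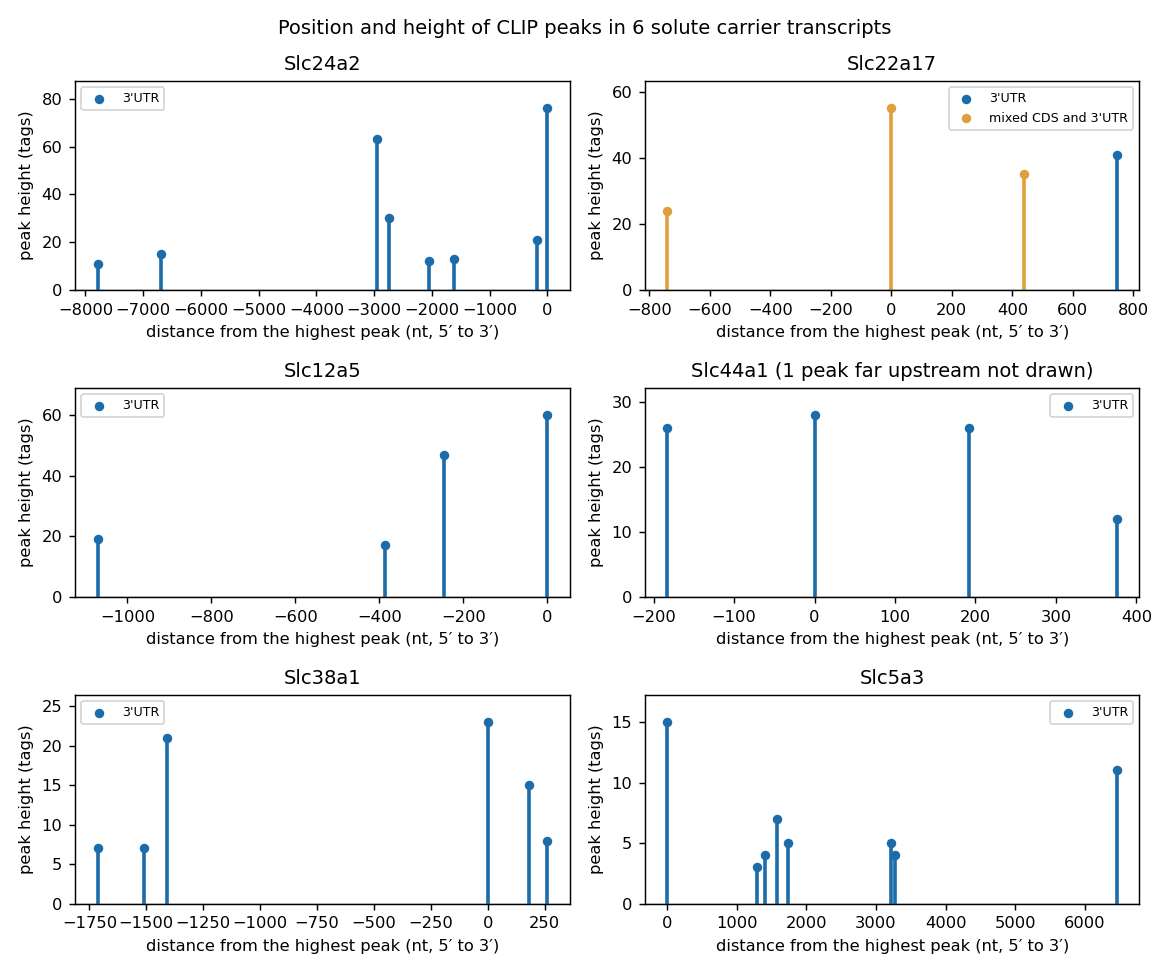
Position and height of the CLIP peaks in 6 of the 10 highest solute carrier genes, with distance in nt from the highest peak of the gene (5′ to 3′ along the transcript strand) and height in pooled tags. Slc24a2 has 2 peaks above 60 tags among 8, Slc12a5 has its 2 highest at the 3′ end of the set, and 1 peak of Slc44a1 far upstream is not drawn.

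Slc22a17 encodes a receptor for lipocalin 2 that was first described as a brain organic cation transporter. It had 258, 220 and 203 CPM (227 ± 28.0), a range that overlaps that of Slc12a5. Of its 4 peaks, 3 carried a mixed coding and 3′UTR class, so the class of most of its tags is ambiguous. The highest was 55 deep on chromosome 14 at 55526381 to 55526383, with 15, 17 and 23 tags. The choline transporter-like gene Slc44a1 had 245, 138 and 113 CPM (166 ± 69.9), with library 1 far above the others. Of its 5 peaks, 3 lay in repeats (2 SINE, 1 DNA element), and 1 peak, also classed as 3′UTR, lay about 54 kb upstream of the other 4. The remaining 8 genes of the role were each at 12.3 CPM or lower, among them the ascorbate transporter Slc23a2 with 6.28, 14.3 and 8.96 CPM and the urea transporter Slc14a1 with 0, 14.3 and 2.99 CPM.

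Amino acid carriers outside the transmitter family summed to 333, 253 and 326 CPM over 15 genes and 27 peaks (304 ± 44.2). Slc38a1, a sodium-coupled glutamine transporter, was highest with 107, 105 and 125 CPM (112 ± 11.3), all in 6 peaks of the 3′UTR on chromosome 15 (96405105 to 96407081) with heights of 7 to 23. Its relative Slc38a2 had 31.4, 19.1 and 11.9 CPM in 1 3′UTR and 1 coding peak. Slc7a11, the cystine-glutamate exchanger of glia, had 69.1, 33.4 and 47.8 CPM (50.1 ± 17.96) in 4 peaks of the 3′UTR, and its libraries differed by more than those of Slc38a1. Slc7a14, a lysosomal member of the cationic amino acid family, had 25.1, 33.4 and 35.8 CPM in 2 peaks of the 3′UTR.

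Mitochondrial carriers summed to 314, 310 and 263 CPM over 12 genes and 19 peaks (296 ± 28.6). The glutamate carrier Slc25a22 had 94.3, 100 and 71.7 CPM (88.7 ± 15.1) in 3 peaks of the 3′UTR, 16 to 26 deep. The second glutamate carrier, Slc25a18, found mainly in astrocytes, had 12.6, 19.1 and 2.99 CPM in 1 peak, and was named because it holds mutation sites. The calcium-regulated ATP-magnesium and phosphate carrier Slc25a23 had 56.6, 47.7 and 38.8 CPM. Slc25a46, an outer membrane protein that acts on mitochondrial shape, had 37.7, 47.7 and 53.8 CPM in 4 peaks within 366 nt. Slc25a12, the aspartate-glutamate carrier of neurons, had a single peak 21 deep with 8, 6 and 7 tags, or 50.3, 28.6 and 20.9 CPM.

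The transmitter and amino acid uptake genes of the Slc6 family summed to 151, 162 and 161 CPM over 7 genes and 10 peaks (158 ± 6.37), with the libraries close together. Slc6a11, a GABA transporter of astrocytes, had 75.4, 62.1 and 83.6 CPM (73.7 ± 10.9), all from 1 peak in the 3′UTR, 53 deep, at 114197826 to 114197830 on chromosome 6. It drew 12, 13 and 28 tags. The vesicular amino acid transporter Slc6a17 had 18.9, 47.7 and 14.9 CPM, so library 2 carried most of its level. The creatine transporter Slc6a8 had 0, 9.55 and 8.96 CPM in 1 coding peak 5 tags deep.

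Of the vesicular families Slc17, Slc18 and Slc32, 3 genes had peaks, all of Slc17, with 195, 100 and 125 CPM (140 ± 49.0). Slc17a7, the vesicular glutamate transporter VGLUT1 of cortical and hippocampal neurons, had 94.3, 71.6 and 86.6 CPM (84.2 ± 11.5) in 4 peaks of the 3′UTR and 1 of the coding sequence. Slc17a6, VGLUT2, had 69.1, 28.6 and 32.8 CPM (43.5 ± 22.3) in 3 peaks of the 3′UTR. The ratio of Slc17a7 to Slc17a6 tags was 1.36, 2.50 and 2.64, above 1 in each library by overlap, but by tag centre Slc17a7 had 3.09 CPM and Slc17a6 14.5 CPM. Slc18 (monoamines and acetylcholine) and Slc32 (GABA and glycine) had no member.

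Zinc and other metal carriers summed to 176, 158 and 170 CPM over 11 genes (168 ± 9.40). The vesicular zinc transporter Slc30a3 was highest with 50.3, 33.4 and 32.8 CPM (38.8 ± 9.90) from 1 peak 26 deep, followed by the zinc importer Slc39a12 with 37.7, 19.1 and 35.8 CPM. Sugar and monocarboxylate carriers summed to 157, 143 and 105 CPM over 5 genes (135 ± 27.2). The inositol transporter Slc5a3 gave most of it, with 88.0, 86.0 and 65.7 CPM (79.9 ± 12.3) in 8 peaks of the 3′UTR over 6475 nt of chromosome 16, each only 3 to 15 deep. The lactate transporter Slc16a1 had 31.4, 19.1 and 8.96 CPM in 1 peak of the 3′UTR, 12 tags deep.

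Carriers of nucleosides and nucleotide sugars were grouped by family symbol (Slc28, Slc29, Slc35 and Slc37), so single genes may carry other substrates. These 8 genes summed to 88.0, 129 and 140 CPM (119 ± 27.5). Of their 24 peaks 18 lay in introns, 17 of these in Slc35f4 and Slc35f3, while the other 6 genes had 6 of 7 peaks in 3′UTRs and 5 of the 8 genes had 3′UTR peaks alone. Slc35f4, a poorly characterised member, had 12 peaks, the most of any solute carrier gene, all in introns, spread over 191401 nt of chromosome 14. They were 2 or 3 tags deep, and none had tags of all 3 libraries, which a peak of 2 tags cannot have. The peak 3 tags deep, at 50127338 to 50127363, had 0, 0 and 3 tags in libraries 1, 2 and 3. The level of Slc35f4 was 12.6, 47.7 and 38.8 CPM (33.0 ± 18.3), lowest in library 1. Slc35f3 had 5 intron peaks of 3 tags each and 31.4, 9.55 and 23.9 CPM, and 1 of the 5 had tags of all 3 libraries. These 2 genes hold 17 of the 46 intron peaks of the members.

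**Figure D3:**
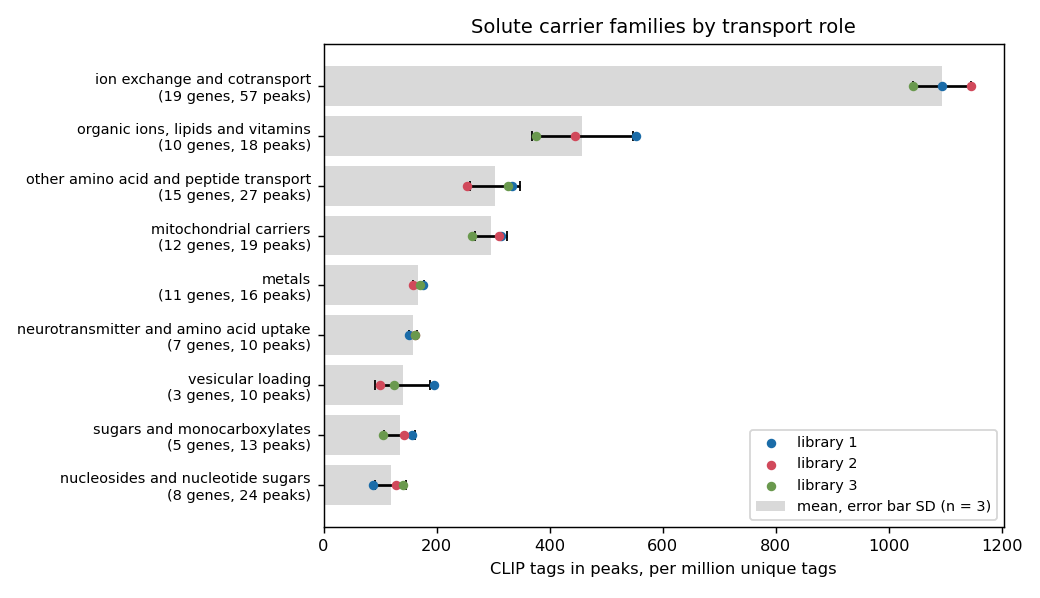
CLIP tags in peaks summed over the genes of each transport role, in CPM, with a grey bar for the mean, an error bar for the SD (n = 3) and 1 point per library. Ion exchange and cotransport reaches 1094 CPM, and the other 8 roles lie between 119 and 458 CPM.

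The members came from 30 families. Of 49 families in the list used here, 19 had no member, among them the glucose transporters (Slc2), the peptide transporters (Slc15) and the nucleoside transporters of Slc28. The Slc1 family is among these because its genes with peaks, Slc1a2 and Slc1a3, were left out by rule, at 187 ± 37.8 and 124 ± 8.77 CPM. RefSeq (GRCm38.p6, used for names only) lists 389 protein-coding Slc symbols, of which 93 had a peak in the table used here, 91 of them members. The share of all protein-coding genes with a peak is not given here, so these counts allow no comparison with genes in general.

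Peaks of the solute carriers lay mostly in 3′UTRs. Of the 195 peaks, 125 were in a 3′UTR (64.1%, 95% exact interval 56.9 to 70.8%), 46 in an intron (23.6%, 17.8 to 30.2%), 15 in coding sequence (7.69%) and 9 in a mixed or other class (4.62%). Among the 10212 other peaks, 55.0% were in a 3′UTR, 34.2% in an intron, 6.48% in coding sequence and 4.32% elsewhere. These include some peaks without a gene symbol. The same set stands for other genes where peak depth, repeats, libraries per peak and tag shares are compared below. Peaks of 1 gene share a transcript and are not independent, so the intervals cover counting error only. At least 1 peak of the 3′UTR was listed for 59 members (64.8%), against 62.8% of other genes. Peaks in the 3′UTR alone were found for 47 members (51.6%) against 50.2%, and intron peaks alone for 20 members (22.0%) against 24.7%. Coding peaks alone were found for 8 members (8.79%) against 6.35%, and both 3′UTR and intron peaks, with no other class, for 3 members (3.30%) against 7.28%.

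The class of a peak went with its depth. Member peaks in 3′UTRs were 3 to 76 tags deep (median 9) and 103 of 125 had tags of all 3 libraries (82.4%, against 78.5% in other genes). Repeats held 13 of these 125 peaks (10.4%, against 3.49% in other genes). Intron peaks were 2 to 18 deep (median 3, against 4 in other genes), and 19 of 46 lay in repeats (41.3%, against 29.3%). Tags of all 3 libraries were found in 11 of 46 (23.9%, against 39.8%). That share depends on depth, since a peak of only 2 tags cannot have tags of all 3 libraries. Coding peaks were 3 to 9 deep (median 5). The 20 members with intron peaks alone had 42 peaks, 2 to 9 deep, of which 8 had tags of all 3 libraries and 17 lay in repeats.

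Counted by tags in place of peaks, 79.3, 81.9 and 78.0% of the tags in solute carrier peaks were in 3′UTR peaks in libraries 1, 2 and 3 (79.7 ± 2.00%), against 74.9, 76.1 and 74.0% in other genes (75.0 ± 1.07%). The difference of 4.74 ± 0.939 percentage points (SD, n = 3) was positive in 3 of 3 libraries, between 3.998 and 5.80. A two-sided exact sign-flip permutation test over libraries gave p = 0.25, the smallest that 3 libraries allow, so the design cannot pass a threshold of 0.05. The intron share was 8.20, 6.20 and 9.69% in members and 15.1, 14.5 and 16.4% in other genes, a difference of -7.31 ± 0.902 points (exact p = 0.25, the smallest possible). The coding share was 4.07 ± 0.249% in members and 5.27 ± 0.236% in other genes (difference -1.20 points). Without Slc24a2 the 3′UTR difference was 1.99 points. Among peaks at least 10 tags deep it was 0.0207 points (87.2% against 87.1%), with libraries on both sides of 0 (-1.73 to 1.41) and exact p = 1.

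**Figure D4:**
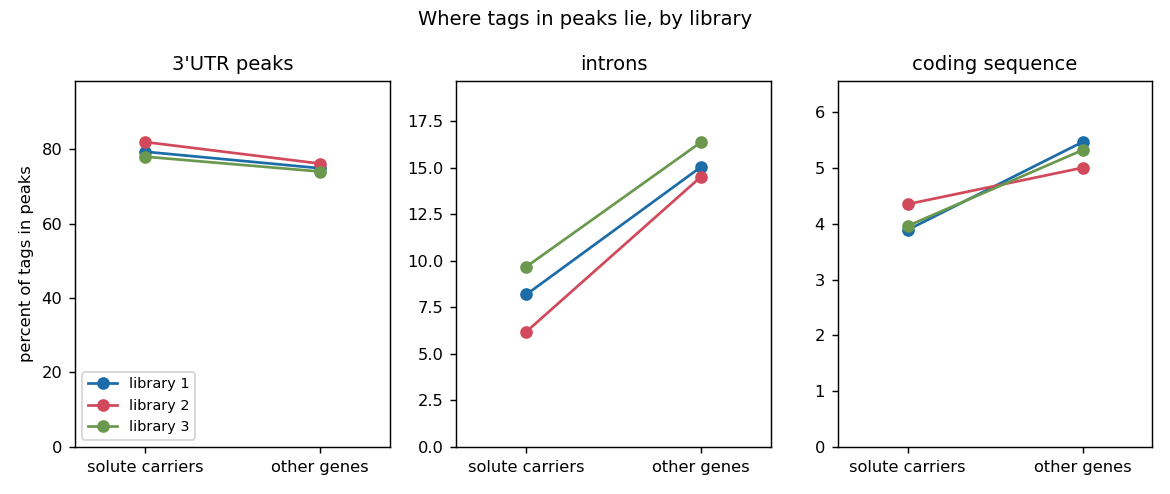
Share of tags in peaks that lie in 3′UTR peaks, introns and coding sequence, in percent of the tags in peaks of the set, for solute carriers and for other genes, with each line joining the values of 1 library. Other genes stand for all peaks outside the members, including some without a gene symbol. Each panel has its own axis starting at 0. In 3 of 3 libraries the solute carriers had the higher 3′UTR share and the lower intron and coding shares.

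In depth and recurrence the member peaks resembled the full set. Member peaks had a median height of 7 tags (range 2 to 76), against 6 in other genes (range 2 to 359). A height of 10 or more was reached by 60 of 195 member peaks (30.8%), beside 29.5% of all peaks. Tags of all 3 libraries were found in 131 member peaks (67.2%, 95% exact interval 60.1 to 73.7%), beside 64.2% of all peaks, while 54 had tags of 2 libraries and 10 of 1. Repeats held 32 member peaks (16.4%), beside 12.4% of all peaks: 11 SINE, 8 LTR, 6 LINE, 4 simple repeats, 2 of low complexity and 1 DNA element. At the level of genes, 62 of 91 members had peak tags in all 3 libraries (68.1%), beside 72.6% of all genes with peaks. Spearman's rho between libraries across member genes was 0.64, 0.67 and 0.73 for the pairs 1 and 2, 1 and 3, and 2 and 3, against 0.65, 0.69 and 0.75 across all genes. These are descriptions across genes, which are not independent replicates, and shallow counts limit them.

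Among the 145 member peaks in genes with more than 1 peak, the median distance to the nearest peak of the gene was 332 nt (lowest 44), against 584 nt for 7711 peaks of other genes. A neighbour within 200 nt was found for 58 member peaks (40%), against 31.7% in other genes, and within 1000 nt for 97 (66.9%), against 57.3%. The difference was not tested, since peaks of 1 gene are not independent.

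Mutation sites, bases with recurrent differences in the tags that passed the authors' limits, fell in 4 of 91 members (4.40%), beside 3.9% of the 4800 genes with peaks. They were 8 sites in Slc12a2, Slc12a5, Slc25a18 and Slc4a4. In Slc12a5, sites at 164824871 and 164824872 had 4 of 19 and 4 of 18 tags mutated (21.1 and 22.2%), 30 and 29 nt from the 47-deep peak, and another at 164825158 had 4 of 57 (7.02%, 95% exact interval 1.95 to 17.0%), 10 nt from the highest peak. In Slc12a2, 5 of 10 tags were mutated at 58106012 on chromosome 18 (50%, 18.7 to 81.3%), 27 nt from a peak. So both chloride cotransporters, with opposite directions of transport, had sites in the 3′UTR.

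In Slc25a18, 4 of 6 tags were mutated at each of 120743766 and 120743767 on chromosome 6, inside its 1 peak, with 1, 4 and 1 tags over the site in the 3 libraries. In Slc4a4, 6 of 18 tags were mutated at each of 89561282 and 89561283 on chromosome 5, inside the intron peak carried mainly by library 3. Adjacent sites share tags, so the 8 sites are 5 places. Since every member has a peak by rule, places were set beside those of other genes with a listed peak. Of the member places, 5 of 5 lay within 50 nt of a peak (95% exact interval 47.8 to 100%), against 250 of 302 in other genes (82.8%). Within 10 nt it was 3 of 5 (60%, interval 14.7 to 94.7%), against 57.9%. At 5 places a difference was not detectable.

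The comparison of knockout with wild-type RNA-seq (8299323 to 21705237 read pairs per knockout library and 18148581 to 27844309 per wild-type library) asks which exons depend on Mbnl2. No member appeared among the authors' changed exons. The authors' microarray is not among the 9 samples, and a heading of its scores names brain without saying hippocampus. In the authors' deposited table of 271 genes called by RNA-seq or microarray, 0 of 91 members were listed (95% exact upper limit 3.97%), beside 3.92% of all genes with a peak. In the authors' deposited table of 209 exons called by RNA-seq alone it was 0 of 91, beside 2.83%, and in the authors' deposited table of array events at a q-value of at most 0.05 it was 0 of 91, beside 4.35%. Of these background shares, 3.92 and 2.83% lie under the upper limit of 3.97%, and 4.35% lies above it. The shares count all genes with a peak, whether or not an event of theirs was measured. The limit treats genes as independent, and whether members have fewer changed events than other genes was not tested. Expression levels of the carriers in knockout and wild type were not analysed here.

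Other genes that work with the carriers were also listed. A list of 15 ion pump genes was chosen with earlier results of these data known. Such pumps build the gradients the carriers use. A peak was listed for 14 of the 15 (not Atp6v0a1), with 2777, 2507 and 2126 CPM in all (2470 ± 327). The sodium pump subunit gene Atp1b1 was highest at 579 ± 48.4 CPM, above Slc24a2. Of 5 kinase genes that regulate cation-chloride cotransporters, Wnk1, Wnk2 and Stk39 had peaks, at 159 ± 41.3, 15.1 ± 14.3 and 51.5 ± 13.8 CPM, while Wnk3 and Oxsr1 had none in the table used here. The share of all protein-coding genes with a peak is not given, so neither count allows a comparison with genes in general.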

How the data were processed

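CLIP was sequenced from 3 wild-type hippocampus libraries and RNA-seq from 3 MBNL2 knockout and 3 wild-type hippocampi. Reads were aligned to mm9, and the submitters' processing notes name Novoalign for CLIP and TopHat 1.3.2 for RNA-seq. Unique tags, peak heights and tag numbers at mutation sites are counts deposited by the authors. Per the file headers, peaks came from pooled tags and passed a Bonferroni-corrected P of 0.01. Mutation sites needed 4 or more mutated tags and an FDR no higher than 0.001, also per the file headers. The repeat share of a peak is a fraction deposited by the authors. P-values, FDRs and q-values of exons and array events are the authors' own, as are the array separation scores, the change of inclusion and the tag score column, which was not used. The peak table used here lacks 1 line.

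Tags were counted on the gene's strand, each once per gene, if they overlapped a peak by any base. The plan had counted tags by their centre. Since 14 member peaks are 1 nt wide and 15 of the 20 highest have no tag centre in some library, overlap became the main count and the centre the alternative. Pooled depth over the peak equalled the deposited height for 10407 of 10407 peaks, and over 557 of 557 mutation sites the deposited tag number. CPM is per 1000000 unique tags. Whether libraries are separate animals is not stated, so spread may be partly technical. Intervals are 95% exact Clopper-Pearson and cover counting error only. The planned test on pooled inclusion and skipping reads was not run: no member had an event, and the 4 columns of such reads name conditions A and B without a genotype. Tag counting was tested on simulated data. Python 3.11.15, pandas 2.3.3, numpy 2.4.6, scipy 1.17.1 and matplotlib 3.10.9 were used.

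Members, roles and lists were chosen with earlier results of these data known. Genes were named if among the 25 members with the highest mean CPM, if they had 5 or more peaks, or if they had a mutation site or a changed event; further genes of a role were named after their values were seen. Values of 2 members are not reported singly here, but count in the sums.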

Additional observations from a re-analysis of the deposited data

How the results depend on the processing

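Counting tags by their centre gave 817 CPM for all solute carrier peaks together, against 2876 CPM by overlap, and 25.6% of member peaks with tags of all 3 libraries (25.8% of all peaks). The difference follows from how narrow the peaks are. Of the 25 highest genes, 16 were also among the 25 highest by centre, where Slc8a1 was highest at 58.9 CPM. Widening peaks by 50 nt gave 4036 CPM and 72.8% of peaks with tags of all 3 libraries, and scaling to tags in peaks gave 18544 tags per 1000000 tags in peaks, a change of unit. Leaving out each library gave 2781 to 2959 CPM. Among peaks at least 10 tags deep, 98.3% had tags of all 3 libraries (95.8% of all peaks) and 88.3% were in 3′UTRs (83.6% of all peaks). Without Slc35f4, 68.3% of member peaks were in 3′UTRs. The 3′UTR difference was 5.97 points by centre, 4.22 to 5.12 without each library and 8.37 without peaks of mixed class. The alternatives without Slc24a2, Slc35f4 or mixed classes were chosen after seeing the data. Of the 8 member mutation sites, adjacent ones counted singly, 62.5% lay within 10 nt of a peak and 100% within 50 nt. By tag centre the order of Slc12a5 and Slc12a2 and of Slc17a7 and Slc17a6 turned round. Members with a changed event numbered 0 in each of the 3 tables, so their inclusion and tags near exons gave no value. No paired analysis was possible because the 3 groups share replicate numbers across assays only in name, and exon values of knockout and wild type came without values per animal; the sign-flip test pairs 2 gene sets within each CLIP library. Depth limits single genes: the median member rests on 9 tags.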

Other observations

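Another 3 solute carrier genes without a peak in the table used here had a changed exon or array event. Slc25a26, the mitochondrial carrier of S-adenosylmethionine, had a change of inclusion of size 0.266 (FDR 0.0448) for its 45 nt exon on chromosome 6 (94526328 to 94526372, mm9) in the authors' deposited table. Slc25a25, a mitochondrial ATP-magnesium and phosphate carrier, had an array separation score of size 0.67 for its 36 nt exon on chromosome 2 (32276176 to 32276211) in the authors' deposited table, while the RNA-seq change there had a size of 0.0626 (FDR 0.42). For the same event, the authors' deposited table of array events gives an RNA-seq separation score of size 1.04 (q = 0.009). Slc19a3, a thiamine transporter, had an array score of size 0.351 (q = 0.018) for a 130 nt event in the authors' deposited table. The headings do not tie conditions A and B to a genotype, so no direction is given. A heading of the array scores names brain without saying hippocampus.

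CLIP tags were counted at the exons of Slc25a26 and Slc25a25, not at the Slc19a3 event. Within 1000 nt upstream, Slc25a26 had 2 tags, both in library 3, and Slc25a25 had 3 tags (2, 0 and 1 in libraries 1, 2 and 3), with none inside or downstream of either exon.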
